A study of Rattus norvegicus with 6 samples.

Results

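The actin and tropomyosin genes are the 10 rows of the gene count table with the symbols Acta1, Actc1, Acta2, Actg2, Actb, Actg1, Tpm1, Tpm2, Tpm3 and Tpm4, out of 16319 genes in all. They were chosen by symbol, with earlier results of these data known, and all 10 had a row and passed the filter on low counts. RNA-seq was performed on rat H9c2 cells, a myoblast line from embryonic heart, with 3 libraries of wild type (WT) cells and 3 of a Nono gene knockout line (Nono-KO). Nono encodes an RNA-binding protein of the nucleus. The Nono-KO line was made with a CRISPR/Cas9 plasmid and puromycin selection, and the scheme of its construction shows the expansion of a single clone, so the spread between libraries is not a spread between clones. A pEGFP-N1 plasmid is named as the control plasmid, and the labels do not say whether the WT libraries come from cells that received it. Both groups were grown in the same medium with serum.

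Actin is the globular protein that polymerizes into thin filaments, and tropomyosin is a coiled coil that lies along the filament and sets which partners may bind it. Mammals have 6 actin genes. The striated muscle actins are Acta1 (skeletal) and Actc1 (cardiac), the smooth muscle actins are Acta2 (vascular) and Actg2 (enteric), and Actb and Actg1 encode the cytoplasmic beta and gamma actins of every cell. Each of the 4 tropomyosin genes gives several proteins through alternative promoters and exons. Tpm1 and Tpm2 supply much of the tropomyosin of striated and smooth muscle, Tpm3 supplies slow muscle and cytoplasmic forms, and Tpm4 supplies mainly cytoplasmic forms. Counts per gene do not separate these forms. In the embryonic heart Acta2, Acta1 and Actc1 are expressed in a changing balance, and Actb is a common loading control.

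Library totals ran from 18138400 to 19253858 counts for WT, and for Nono-KO from 17612958 to 18770188. The targeted gene, Nono, was counted 7329, 5884 and 5519 times in WT libraries, against 109, 94 and 96 times after knockout. WT replicate 1 stood apart from the other WT libraries, with Pearson correlations across genes of 0.985 and 0.988 to them against 0.993 between those, and results that change most without it are given both ways. The labels name cardiac muscle as the source. Of 12 cardiomyocyte markers only 5 passed the filter, and Ryr2, Nppa, Myl7 and Tbx5, chosen after their values were seen, had 0 to 2 counts in every library. Of the 5 that passed, Nkx2-5 had 356 to 437 counts per WT library, Tnnt2 had 269 to 1492 and Mybpc3 had 2 to 9. Gata4 and Myh6, also named after their values were seen, had 283 to 311 and 11 to 18. The abundant skeletal muscle regulator Myod1 had 2185 to 2658 counts per WT library and 2662 to 2748 per Nono-KO library. The skeletal muscle marker Ckm, also named after its values were seen, had 2 to 14 counts per WT library.

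The promoters of some of these genes carry the CArG box, the site of serum response factor (SRF), which drives actin genes with cofactors that sense free actin. The box was searched as CC, 6 bases that are each A or T, and GG, in the RefSeq windows of 250 bases before to 50 bases after the gene start (build GRCr8), which exist for 9 of the 10 genes and not for Actb. Full boxes were found in the windows of Acta1, Actc1 and Actg1, and 1.64% of all 33469 windows hold one. They are shown with capitals for the box, and because the same element is carried by striated actin genes and by Actg1, whose counts differed in their behaviour.
Acta1 (chr19:68784269-68784298, minus strand): tgcccaacacCCAAATATGGcttgggaagg
Actc1 (chr3:121271806-121271835, minus strand): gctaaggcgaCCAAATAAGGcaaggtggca
Actg1 (chr10:106121022-106121051, minus strand): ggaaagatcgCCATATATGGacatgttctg
The boxes begin 94 bases before the start in Acta1 and 90 before it in Actg1, whereas that of Actc1 begins at base 3 of the annotated transcript. Boxes with 1 of the 6 inner bases changed to G or C occur in 8.1% of windows, and among these genes in Acta1, Actc1, Acta2 and Tpm3. The following pair, from Acta2 and Actc1, is shown because both hold the same 10 letters.
Acta2 (chr1:241172618-241172647, minus strand): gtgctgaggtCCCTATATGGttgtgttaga
Actc1 (chr3:121271934-121271963, minus strand): ctccctagatCCCTATATGGccattgctct
Searched on both strands, CATTCC, the core of the site of TEAD factors, was in 3 of the 9 genes and 14.2% of windows, TATAAA in 1 and 14.2%, and the E-box CAGCTG in 4 and 15.1%. Tpm3 has 3 windows, of which the later pair overlaps, and the searched motifs can overlap one another. A match is a string of letters in a window and no measurement of binding. The 10 genes lie on 10 different chromosomes.

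Muscle actins rose in Nono-KO cells and cytoplasmic actins did not pass the test. Levels are given as CPM, which are counts brought to a common library size with TMM factors, and rose and fell mean a Benjamini-Hochberg adjusted p under 0.05 over all 12028 genes tested, from edgeR's quasi-likelihood test. A positive log2 fold change means higher in Nono-KO cells, and SE is its standard error. Of the 10 genes 6 rose, 2 fell and 2 did not pass. Among all genes tested 34.2% rose and 38.1% fell, so that 8 of 10 called is close to the 72.2% of all genes, whereas the 6 that rose are a larger part than in the background. The median log2 fold change of the 10 was 0.78, against -0.05 over all genes tested. Because the members were chosen with earlier results of these data known, both comparisons are descriptions and not tests.

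Acta1, the main actin of adult skeletal muscle, stood at 6.12, 17.4 and 20.5 CPM in the WT libraries and at 438, 557 and 445 CPM in the Nono-KO libraries. Every Nono-KO library was far above every WT library, and the lowest value was that of WT replicate 1. The log2 fold change was 5.04 (SE 0.43, adjusted p = 6.26e-05 from edgeR), and 4.66 without WT replicate 1. This placed Acta1 at rank 34 of 12028 genes ordered from the largest rise.

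Actc1, the actin of the adult heart, was close to undetected in WT cells. In WT cells it was counted 1, 9 and 6 times, and in Nono-KO cells 58, 94 and 51 times, with no overlap. The totals of 16 and 203 counts, each over its group's total, gave a ratio of 12.8 (exact 95% interval 7.71 to 22.9, which covers counting error only). The fitted log2 fold change was 3.71 (SE 0.47, adjusted p = 2.35e-05 from edgeR), and it moved to 3.18 without WT replicate 1 and 4.30 without WT replicate 2, so its size is loosely set. Even in Nono-KO cells the gene stayed at 2.70 to 5.23 CPM.

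Acta2, the vascular smooth muscle actin, had the largest difference in CPM among the 10 genes. It stood at 5053, 5085 and 5795 CPM in WT and at 11991, 11859 and 10936 CPM in Nono-KO libraries. The groups were widely separated, with a coefficient of variation of 7.90% in WT and 4.96% in Nono-KO. The log2 fold change was 1.13 (SE 0.08, adjusted p = 4.16e-07 from edgeR). Acta2 took on average 0.541% of all WT counts and 1.14% of all Nono-KO counts.

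Actg2, the enteric smooth muscle actin, stood at 219, 116 and 130 CPM in WT and at 328, 348 and 302 CPM in Nono-KO libraries. All Nono-KO values were above all WT values, and WT replicate 1 was the high one, in contrast to Acta1 and Actc1, where it was the low one. The log2 fold change was 1.07 (SE 0.21, adjusted p = 0.00112 from edgeR), and 1.40 without WT replicate 1. The cause of the high value was not tested. The 4 muscle actins are also the only members past the study's limits for differentially expressed genes (an adjusted p below 0.01 with a log2 fold change beyond 1 in size), which 10.8% of all genes passed in the higher direction. Acta1, Actc1 and Acta2 stayed past these limits under all 14 alternatives and Actg2 under 9. Actg2 missed them without WT replicate 2 (0.90) or 3 (0.95) through its size, and through its adjusted p with no filter (0.0167 from edgeR) or without Nono-KO replicate 1 (0.0135) or 2 (0.0192).

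The cytoplasmic actins moved little. Actb stood at 10521, 10249 and 10508 CPM in WT and at 11532, 10996 and 11207 CPM in Nono-KO libraries. The Nono-KO values lay just above the WT values, yet the log2 fold change of 0.11 (SE 0.07) did not pass (adjusted p = 0.166 from edgeR), and its 95% interval was -0.04 to 0.26. Actg1 stood at 1556, 1410 and 1523 CPM in WT and at 1634, 1582 and 1553 CPM in Nono-KO libraries, and the groups overlapped. Its log2 fold change of 0.09 (SE 0.07) did not pass either (adjusted p = 0.312 from edgeR), with a 95% interval of -0.08 to 0.25. A rise beyond these intervals was not seen, and a small one cannot be told from none at this spread.

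**Figure D1:**
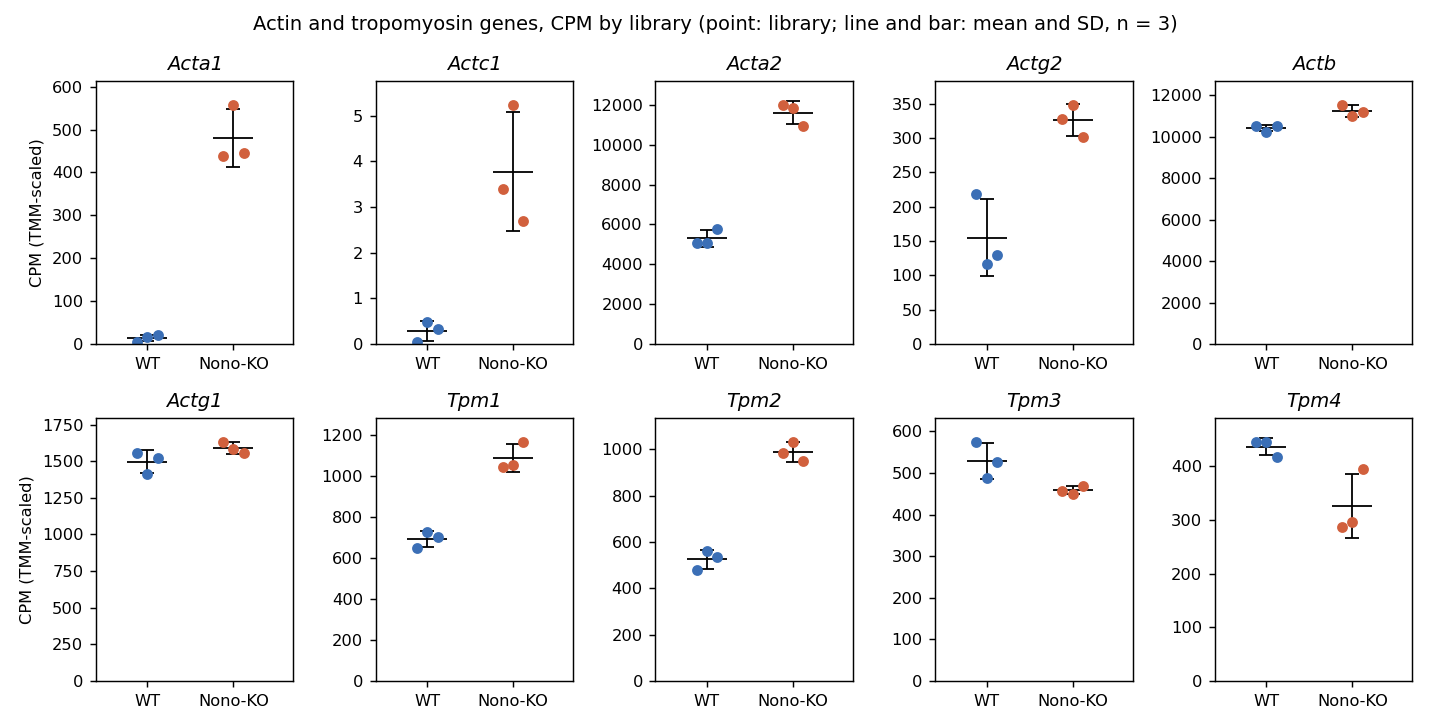
CPM after TMM scaling (vertical axes, from 0) of each actin and tropomyosin gene in WT and Nono-KO cells (horizontal axes). Points are the 3 libraries of each group, the horizontal line is the mean and the bar the SD. Nono-KO libraries of Acta1 lie at 438 to 557 CPM against 6.12 to 20.5 CPM in WT, while those of Actg1 overlap with WT.

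The tropomyosins divided by gene. Tpm1, the alpha-tropomyosin gene of striated muscle, stood at 651, 727 and 706 CPM in WT and at 1046, 1057 and 1170 CPM in Nono-KO libraries. The groups did not overlap, and the log2 fold change was 0.65 (SE 0.08, adjusted p = 2.27e-05 from edgeR). Tpm2, the beta-tropomyosin gene, stood at 479.7, 559 and 536 CPM in WT and at 985, 1033 and 948 CPM in Nono-KO libraries. It rose further than Tpm1, by 0.91 on the log2 scale (SE 0.08, adjusted p = 2.09e-06 from edgeR), again with no overlap.

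Tpm4, which encodes mainly cytoplasmic tropomyosin, was lower in the knockout. It stood at 446, 445 and 418 CPM in WT and at 287, 295 and 394 CPM in Nono-KO libraries. Nono-KO replicate 3 lay well above the other Nono-KO libraries and just under the lowest WT library. The log2 fold change was -0.42 (SE 0.12, adjusted p = 0.00585 from edgeR), and without Nono-KO replicate 3 it was -0.55. Tpm3 stood at 575, 489 and 526 CPM in WT and at 456, 449.5 and 468 CPM in Nono-KO libraries, with no overlap. The log2 fold change of -0.21 (SE 0.08) just passed (adjusted p = 0.0369 from edgeR) and no longer passed under 8 of 14 alternatives, among them DESeq2 (adjusted p = 0.088) and the omission of WT replicate 1 (0.0991), WT replicate 3 (0.0504) or Nono-KO replicate 1 (0.136), 2 (0.164) or 3 (0.0893). In 9 of the 10 genes the groups did not overlap, as in 75.1% of all genes tested.

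**Figure D2:**
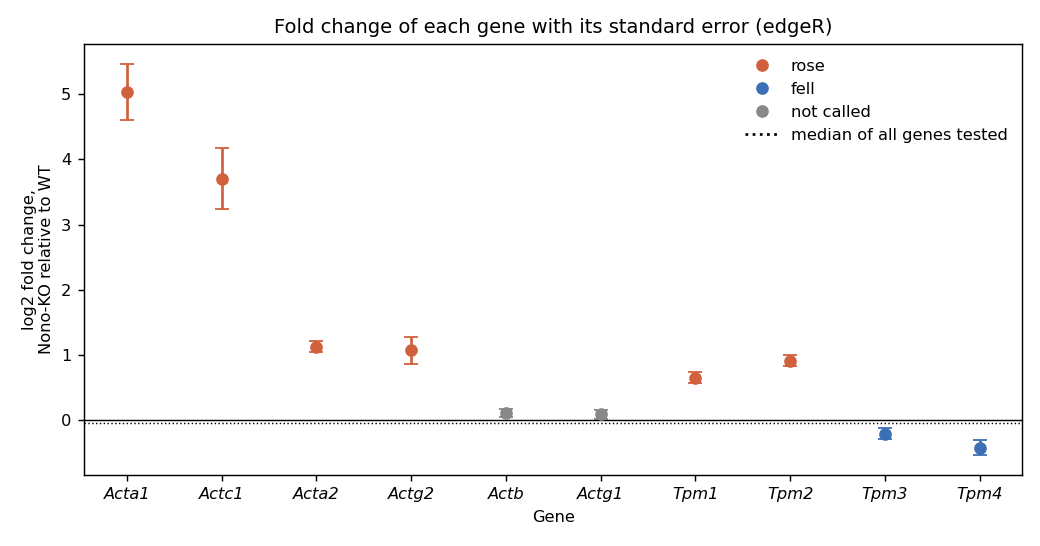
Log2 fold change, positive where Nono-KO is higher (vertical axis), of the 10 genes (horizontal axis), with bars for the standard error. Colours give the call at an adjusted p under 0.05, and the dotted line is the median of all genes tested, -0.05. Muscle actins, Tpm1 and Tpm2 lie above 0, the cytoplasmic actins near 0, and Tpm3 and Tpm4 below it.

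How these changes altered the make-up of each family was then examined through shares within libraries, in which scaling plays no part. The summed levels in CPM given beside them are TMM-scaled. The shares are shares of read counts. No transcript lengths of the authors' annotation were used, so they do not rank the genes by number of transcripts and serve only to compare the groups. The 6 actin genes together took 1.74% to 1.81% of the counts of a WT library and 2.44% to 2.52% of those of a Nono-KO library, and their summed level was 17404 ± 551 CPM against 25240 ± 746 CPM (SD, n = 3 in each group). The sum of the muscle actins went from 5481 ± 403 to 12405 ± 623 CPM, and that of the cytoplasmic actins from 11923 ± 229 to 12835 ± 301 CPM. Tropomyosins took 0.215% to 0.229% of the counts of a WT library and 0.269% to 0.300% of those of a Nono-KO library, with summed levels of 2185 ± 34.5 and 2863 ± 106 CPM.

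Cytoplasmic actin held most actin reads in WT cells and close to an even part in Nono-KO cells. Its share was 69.6%, 69.1% and 66.9% across WT libraries, against 50.8%, 49.6% and 52.2% across Nono-KO libraries. The smooth muscle class went from 31.4% ± 1.38 to 47.2% ± 1.12 (SD, n = 3 in each group), nearly all of it Acta2, whose share was 30.5% ± 1.59 in WT and 45.9% ± 1.06 in Nono-KO cells. The striated class went from 0.0858% ± 0.0438 to 1.92% ± 0.27, nearly all of it Acta1. The share of Actb went from 59.9% ± 1.28 to 44.6% ± 1.23 and that of Actg1 from 8.60% ± 0.325 to 6.30% ± 0.0566. None of the 3 class shares overlapped between the groups, and each gave p = 0.1 in an exact two-sided permutation test, the smallest value that 3 libraries against 3 can give (p = 0.1 also when adjusted over the 3 classes).

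Among the tropomyosins, Tpm1 and Tpm2 together held 52.5%, 57.9% and 56.8% of the reads in WT and 73.2%, 73.7% and 71.1% in Nono-KO libraries. Tpm2 gained the most, from 24.0% ± 1.504 to 34.6% ± 2.45 (SD, n = 3 in each group), and Tpm1 went from 31.8% ± 1.34 to 38.1% ± 1.03. Tpm3 went from 24.3% ± 2.37 to 16.0% ± 0.39 and Tpm4 from 20.0% ± 0.80 to 11.3% ± 1.65. Of the 10 single shares, 9 did not overlap between groups and gave an exact permutation p = 0.1, or 0.111 adjusted over the 10. The exception was Actg2, at 1.26%, 0.689% and 0.723% of actin reads in WT and 1.27%, 1.37% and 1.24% in Nono-KO libraries (exact permutation p = 0.2), where WT replicate 1 lay among the Nono-KO values. The difference in its share was 0.40 percentage points, and 0.59 without that library.

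**Figure D3:**
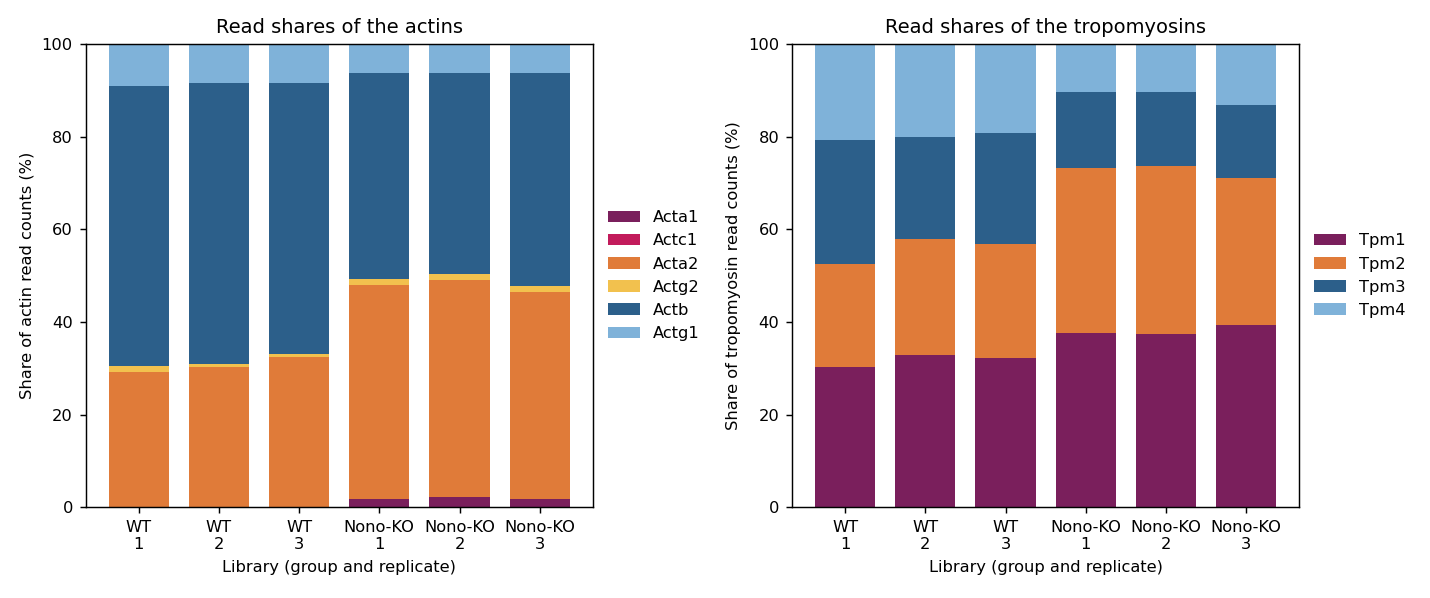
Share of each gene in the read counts of its family (vertical axes, percent) for each of the 6 libraries (horizontal axes), actins on the left and tropomyosins on the right. The cytoplasmic actins Actb and Actg1, in blue, fill 66.9% to 69.6% of the actin bar in WT and 49.6% to 52.2% in Nono-KO. Actc1 is too small to be seen.

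Ratios between members showed which ones moved apart and which moved together. For 7 pairs the log2 ratio of counts was taken in each library. Acta1 gained on Acta2 by 4.07 (from -8.67 ± 0.88 to -4.60 ± 0.18, SD, n = 3 in each group), Tpm1 on Tpm4 by 1.09 (from 0.67 ± 0.11 to 1.76 ± 0.17) and Tpm2 on Tpm1 by 0.26 (from -0.41 ± 0.03 to -0.14 ± 0.14), each with no overlap. The exact permutation p was 0.1 for each of these, or 0.233 adjusted over the 7 pairs. Without WT replicate 1 Acta1 gained 3.56 on Acta2. Acta1 to Actc1 differed by 1.02 and Tpm3 to Tpm4 by 0.23, with overlapping libraries (exact permutation p = 0.2 and 0.3). For Acta1 to Actc1 the overlap came from WT replicate 1, at 6.94 against 5.17 and 5.94 in the other WT libraries, and the difference was 1.48 without it and 0.59 without WT replicate 2. The WT ratios of this pair rest on Actc1 counts of 1, 9 and 6 and are imprecise.

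The cytoplasmic pair kept a narrow ratio. Actg1 to Actb stood at -2.80 ± 0.05 in WT and -2.82 ± 0.03 in Nono-KO cells on the log2 scale (SD, n = 3 in each group), a difference of -0.02 (exact permutation p = 0.6). The smooth muscle pair, Actg2 to Acta2, stood at -5.15 ± 0.54 and -5.15 ± 0.05, with p = 1 by the same exact test. That match of the means rests on WT replicate 1, at -4.53 against -5.45 and -5.48 in the other WT libraries, and without it the difference was 0.31.

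**Figure D4:**
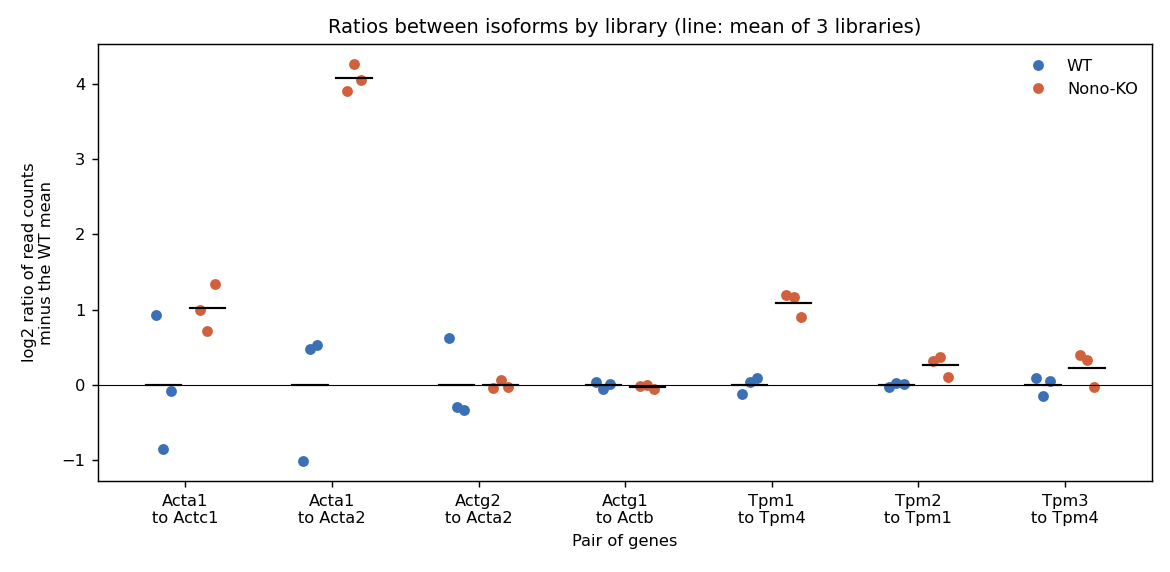
Log2 ratio of the read counts of 7 pairs of genes minus its WT mean (vertical axis), with 1 point per library and a line for the mean of each group. The Nono-KO libraries of Acta1 to Acta2 lie about 4.07 above the WT mean, and those of Actg1 to Actb differ from it by -0.02 on average. WT replicate 1 is the lone high WT point of Actg2 to Acta2 and the lone low one of Acta1 to Acta2.

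Proteins that bind actin and tropomyosin went both ways. In 9 lists of partners, with 120 genes listed and 102 tested, 37 rose, 43 fell and 22 did not pass, with a median log2 fold change of -0.10. These shares are close to those of all genes tested, of which 34.2% rose and 38.1% fell. The count of each list below is to be read beside those shares.

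Troponin, the calcium switch that sits on tropomyosin in striated muscle, rose with the muscle actins. Of 7 troponin genes tested 6 rose and 0 fell (edgeR, adjusted p below 0.05), and the median log2 fold change was 3.00. All 7 rose without WT replicate 1, and 4 did without Nono-KO replicate 2 or with the replicate number as a block. Tnnc1, the slow and cardiac troponin C, which had the most counts in WT cells, stood at 287 ± 16.1 CPM in WT and 749 ± 39.5 CPM in Nono-KO cells (SD, 3 libraries each). Tnnc2, the fast troponin C, named after its values were seen, stood at 97.0 ± 57.8 CPM in WT and 802 ± 78.4 CPM in Nono-KO cells (SD, 3 libraries each), above Tnnc1 in the mean. Tnni1, slow troponin I, had a log2 fold change of 3.18 and Tnnt1, slow troponin T, one of 3.12 (2.59 without WT replicate 1). The fast isoforms Tnnt3 and Tnni2, also named after the fact, had log2 fold changes of 3.00 and 2.16. Tnnt2, the cardiac troponin T, was counted 269, 1459 and 1492 times in WT cells, against 1895, 2428 and 2583 times in the knockout, and did not pass (log2 fold change 1.14, SE 0.66). WT replicate 1 was again the low one there and for Tnnt1, with 24 counts against 221 and 209. Without it the log2 fold change of Tnnt2 was 0.66 (SE 0.10) and passed (adjusted p = 4.89e-05 from edgeR).

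Tropomodulins, leiomodins and thin filament templates, which cap, start and measure filaments, divided into 3 that rose and 3 that fell among 7 tested, with a median of 0.17. Lmod1, the leiomodin of smooth muscle, stood at 17.4 ± 2.29 CPM in WT and 194 ± 4.23 CPM in Nono-KO cells (SD, 3 libraries each). Nrap, a scaffold of growing myofibrils, fell by 1.60 on the log2 scale. Of 11 barbed-end capping genes 4 rose (36.4%) and 6 fell (54.5%), with a median of -0.28. Vil1, the actin-severing villin, had a log2 fold change of 5.15 from 0.50 CPM in WT cells, and Eps8, which caps and bundles filaments, one of -2.44. Capg, the gelsolin-like capper with the most counts over the 6 libraries together though not in WT cells alone, stood at 326 ± 48.6 CPM in WT and 924 ± 76.5 CPM in Nono-KO cells (SD, 3 libraries each).

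Formins, which nucleate and lengthen unbranched filaments, were lower. Of 9 tested, 8 fell and 0 rose (edgeR, adjusted p below 0.05), and the median was -1.37. Daam1 fell by 2.47, Fmn1 by 1.78 and Inf2, the formin with the most counts, by 0.56 on the log2 scale. Of 13 genes of the Arp2/3 complex, the nucleator of branched filaments, and its activators, 6 fell and 2 rose (median -0.23), and the 46.2% that fell is near the 38.1% of all genes. The count that rose was 1 without Nono-KO replicate 1 or 2 and with the replicate number as a block. The subunit Actr2 fell by 1.59 on the log2 scale and Arpc5 fell by 1.25, while Arpc1b rose by 0.21.

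Of 13 genes for monomer binding and severing, 7 rose (53.8%) and 4 fell (30.8%), with a median of 0.26. Tmsb10, a thymosin that holds actin monomers and the one with the most counts over the 6 libraries, had a log2 fold change of 0.98, and Wdr1, a cofactor of cofilin, fell by 1.02. Of 17 crosslinkers and side binders, 9 rose (52.9%) and 4 fell (23.5%), with a median of 0.20. The count that rose was 6 without WT replicate 2 or Nono-KO replicate 1 or 2 and with the replicate number as a block. That is 35.3% of the list, near the 34.2% of all genes in the main test (4108 of 12028). Somewhat fewer of all genes rose in those fits, 3766 to 3944 of 12028 to 12181. Without WT replicate 1, 7 rose and 5 fell. The smooth muscle proteins Cnn1 (calponin) and Tagln (transgelin) had log2 fold changes of 1.58 and 1.22. Flna, the filamin with the most counts, had one of 0.16 and did not pass. The filamin Flnc, named after its values were seen, had one of -0.27 and did not pass. Without WT replicate 1 it was -0.54 and passed (adjusted p = 0.00109 from edgeR).

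Of 19 genes that fold or modify actin, 9 fell and 6 rose (median -0.20). The 47.4% that fell and the 31.6% that rose are near the shares of all genes. Cct4, a subunit of the chaperonin that folds actin, fell by 0.91 and Mical2, which oxidizes actin, by 0.98, while Cct7, with the most counts among them, had a log2 fold change of 0.16 and did not pass. Of 6 genes for SRF and its cofactors 3 fell and 0 rose (median -0.22). The count that fell was 2 with DESeq2, with DESeq2 size factors in edgeR or with the replicate number as a block. It was also 2 without WT replicate 2 or 3 or Nono-KO replicate 1 or 2, and 4 with total counts. With DESeq2 and with no filter 1 rose. Myocd (myocardin), a cofactor of SRF in smooth and cardiac muscle, stood at 109.3 ± 40.9 CPM in WT and 35.6 ± 3.41 CPM in Nono-KO cells (SD, 3 libraries each), Mrtfb fell by 1.28 and Fhl1 by 0.25. The log2 fold change of Myocd was -1.62, and -1.91 without WT replicate 1, which had 1252 counts against 2414 and 2456. Srf itself, which is named after its values were seen, had a log2 fold change of -0.20 (SE 0.12) and did not pass, while without WT replicate 1 it was -0.34 and passed (adjusted p = 0.00198 from edgeR), which made 4 that fell.

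**Figure D5:**
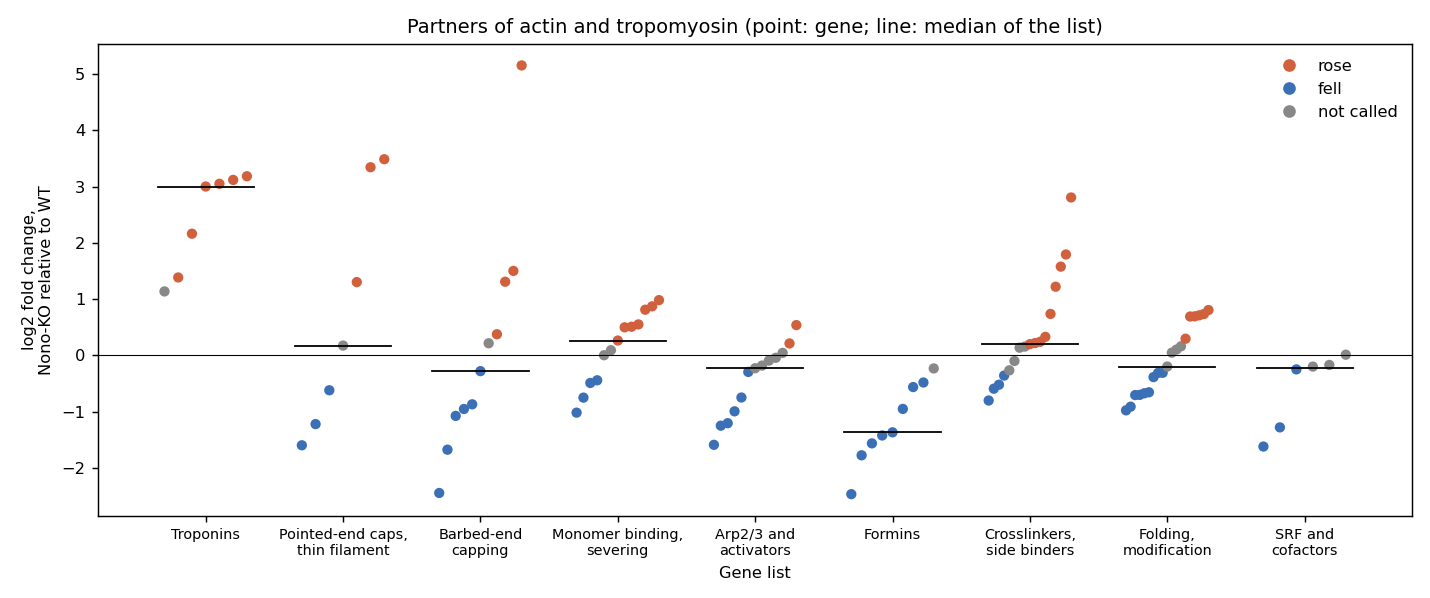
Log2 fold change, positive where Nono-KO is higher (vertical axis), of each tested gene of 9 lists of actin and tropomyosin partners (horizontal axis). Points are genes coloured by their call at an adjusted p under 0.05, and lines are the medians of the lists, from -1.37 for formins to 3.00 for troponins.

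Markers of skeletal and smooth muscle were next counted, beside the 34.2% of all genes that rose. Some genes recur, since Cnn1, Tagln, Lmod1, Myocd, Tnnt3 and Tnnt2 were already counted among the partners. Des, named only for this, is in both the smooth and the skeletal muscle list. Of 10 smooth muscle markers tested 6 rose and 3 fell, and their summed level was 1743 to 1899 CPM across WT libraries, against 3816 to 3968 CPM across Nono-KO libraries. Most of that sum was Tagln, at a mean of 1207 CPM in WT and 2813 CPM in Nono-KO cells. Mylk, the myosin light chain kinase, rose by 3.83 on the log2 scale from 0.378 CPM in WT cells. The 3 that fell were Myocd, Synm and Synpo2, the last by 0.27 (adjusted p = 0.0296 from edgeR). Only 2 fell with DESeq2, with DESeq2 size factors in edgeR or with the replicate number as a block. The same count of 2 was found without WT replicate 3 or without any 1 of the Nono-KO libraries. Of 8 skeletal muscle markers tested 6 rose and 0 fell, with sums of 155 to 193 CPM in WT and 403 to 479.7 CPM in Nono-KO. Among the 6 were Myog, a transcription factor of differentiating myoblasts, with a log2 fold change of 4.03, and Myh3, the embryonic myosin heavy chain, with 3.51. Without WT replicate 1, 9 were tested, of which 6 rose and 1 fell. Myh8, named after its values were seen, then fell by 1.38 (adjusted p = 0.000489 from edgeR). In the main test its log2 fold change was -0.84 and did not pass. Of 5 cardiomyocyte markers tested 2 rose and 0 fell, Mybpc3 by 5.09 and Nkx2-5 by 0.96 on the log2 scale, with sums of 48.7 to 127 CPM in WT and 179 to 208 CPM in Nono-KO. That share of 40.0% is near the background. Mybpc3 started near the floor, with 2, 2 and 9 counts in the WT libraries, and stood at 8.07 CPM on average in Nono-KO cells. Tnnt2 had the most counts of the list in 5 of the 6 libraries, WT replicate 1 being the exception, and 3 rose without that library. Of 5 fibroblast markers tested 2 rose and 3 fell. Col1a2, with the most counts, fell by 0.42, Col1a1 fell by 0.47 and Postn fell by 0.79 on the log2 scale. The 2 that rose, named to complete the count, were Thy1, by 0.33, and S100a4, by 0.43 (0.70 without WT replicate 1). Only 1 rose when any library other than WT replicate 1 was left out. The summed level of the fibroblast markers was 34587 to 42166 CPM in WT and 25790 to 30688 CPM in Nono-KO. Nearly all of that sum was collagen. Col1a1 stood at a mean of 18295 CPM in WT and 13193 CPM in Nono-KO cells, and Col1a2 at 18484 and 13859 CPM. Dcn, chosen after its values were seen, had 0 or 1 counts. Their part in the actin and tropomyosin values was not tested. In bulk RNA, more cells of a type and more RNA per cell cannot be told apart.

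The genes whose profile over the 6 libraries was most like that of a member were found by the Euclidean distance between log2 CPM values centred on each gene's mean. Nearest to Acta1 were Prss32, a serine protease (distance 0.80), Ces2c, a carboxylesterase (1.02), and Hjv, hemojuvelin of skeletal muscle and liver (1.12). All 3 had under 1 CPM on average in WT cells. Nearest to Actb were Vps11 (0.05), Ift122 (0.06) and Sort1 (0.07), and nearest to Tpm1 were Kctd3 (0.07), Qrsl1 (0.08) and Mrpl40 (0.08). With only WT and Nono-KO libraries this distance mostly follows the size of the difference between them.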

How the data were processed

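The authors made stranded mRNA libraries and deposited a table of raw, unscaled counts whose rows are gene symbols and whose 6 columns are the libraries. The submitters' processing notes list mRatBN7.2 as the build and the tools HTSeq, HISAT2 and Trimmomatic, the methods name Bowtie2 and Rn6, while for versions, annotation, strand and multimapping settings the sources used here give nothing. The actin genes are close paralogs, so reads shared among them may have been split or dropped, and the counts of each are uncertain to that extent.

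Counts were analysed in R 4.3.3 with edgeR 4.0.16 (quasi-likelihood test, robust dispersions, TMM scaling, filterByExpr), with 12028 of 16319 genes tested. The SE is the absolute log2 fold change over the root of F. CPM is TMM-scaled. Shares and ratios were compared by exact permutation tests. Members and lists were chosen with earlier results of these data known. Named from each list were the most abundant gene and, among genes past the test that reached 5 CPM in either group's mean, up to 2 with the largest change. Genes named outside this rule are marked as such, besides Tnnt2 and Myod1, which the rule takes from the marker lists, and Synm and Synpo2, which complete a count. Totals of 17612958 to 19253858 counts leave genes with few counts imprecise. The paper calls the libraries biological replicates and does not say whether they were separate cultures. Alternatives were other scalings and filters, DESeq2 1.42.0, no robust dispersions, the replicate number as a block, and omission of each library. In simulated counts edgeR called 30 of 50 genes with a 1.5-fold change and 5 of 11828 unchanged genes. Far fewer genes were changed there than were called in these data, so that check does not cover them.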

Additional observations from a re-analysis of the deposited data

How the results depend on the processing

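All 10 log2 fold changes kept their sign under the 14 alternatives to the test, and 9 of the 10 genes kept their side of the threshold. The exception was Tpm3, which was called in the main test (-0.21, adjusted p = 0.0369 from edgeR). It no longer passed with DESeq2 size factors in edgeR (-0.16, adjusted p = 0.13), with DESeq2 (-0.18, adjusted p = 0.088), or with the replicate number as a block (replicate block: -0.21, adjusted p = 0.104). Under each of these 3 the number of members that fell was 1 in place of 2. Leaving out 1 library at a time gave Tpm3 values from -0.27 to -0.15, with the call lost for every library but WT replicate 2, and 1 to 2 members that fell. Over those omissions Acta1 ranged from 4.66 to 5.35, Actc1 from 3.18 to 4.30 and Actg2 from 0.90 to 1.40.

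Same-numbered libraries of the 2 groups did not deviate together, with correlations of deviations of 0.05, -0.16 and -0.19, so they were not taken as paired. With the block 3944 genes rose and 4443 fell, against 4108 and 4578. Of the shares and ratios, those that changed sign were near 0: Actg2 to Acta2, from -0.0009 to 0.31 without WT replicate 1, 0.018 without Nono-KO replicate 1 and 0.012 without Nono-KO replicate 3, and Actg1 to Actb, from -0.02 to 0.0012 without WT replicate 1. Over all omissions these ratios ranged from -0.16 to 0.31 and from -0.051 to 0.0012. The median log2 fold change of all genes ran from -0.11 with total counts to 0.06 with DESeq2. Division by length was not run, because the reference lengths are genomic spans and not transcripts. Depth limits Actc1, with 1 to 9 counts per WT library.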

Other observations

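Actb and Gapdh are common reference genes, and the ratio between them was looked at after the values were seen. On the log2 scale Actb to Gapdh was 1.78 ± 0.05 in WT and 1.56 ± 0.04 in Nono-KO cells (SD, n = 3 in each group), a difference of -0.22 with no overlap (exact two-sided permutation p = 0.1, the smallest that 3 against 3 can give). Expressed relative to Gapdh rather than to all counts, Actb was therefore lower in Nono-KO cells, whereas its log2 fold change on TMM-scaled counts was 0.11.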
